A study of Mus musculus with 2 samples.

Results

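Matrix metalloproteases, the related ADAMTS proteases and their tissue inhibitors were measured in RNA from a FLAG precipitation of fetal mouse testis that carried tagged NANOS2, and in the input RNA. The genes were chosen by name: every probe of the array whose gene symbol in the authors' deposited table starts with Adamts, Mmp or Timp followed by a number. This gave 70 probes of 43 genes, of 41174 probes and 20161 named genes in all, with 18 Adamts, 21 Mmp and 4 Timp genes among them. Both groups were male gonads of the MCH mouse strain at embryonic day 14.5, and both carried the transgene that the labels write as Tg-Nanos2 enhancer-3xFLAG-Nanos2-3'UTR. In the FLAG IP group, the RNA came from a precipitation with Anti-FLAG M2-Agarose. In the input group, no antibody was used. Each group was 1 deposited sample with 2 one-colour Agilent arrays, which every n = 2 here counts. Each SE is the moderated SE of limma, which draws a gene's variance toward a value taken from all genes. The arrays are described as biological duplicates in the series' design text, and the labels do not say which animals each array came from. A precipitate from gonads without the transgene was not analysed here, so RNA that binds the beads without tagged NANOS2 was not measured, and a higher or lower share in the FLAG IP is only that. NANOS2 is an RNA-binding protein of male germ cells, and the transgene is driven by a Nanos2 enhancer, per the labels.

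Matrix metalloproteases (MMPs) are zinc enzymes, made as inactive proenzymes, that cut collagens, laminins and other proteins outside the cell, either as secreted enzymes or anchored in the cell membrane. ADAMTS proteases are secreted relatives with thrombospondin repeats. Some of them cut the proteoglycans aggrecan and versican, and others trim procollagens or act on fibrillin microfibrils. Tissue inhibitors of metalloproteases (TIMPs) bind the active site of these enzymes, and in a fetal testis the matrix they act on surrounds the cords and fills the interstitium.

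A compact cluster of Mmp genes lies on mouse chromosome 9. In RefSeq's genes of assembly GRCm38.p6, 8 Mmp genes of the array follow each other there in the order Mmp13, Mmp12, Mmp3, Mmp1a, Mmp10, Mmp8, Mmp20 and Mmp7, with only other Mmp genes between them. Few of them gave a signal above background. Of the 8 genes, 6 had no probe well above background on any of the 4 arrays (Mmp13, Mmp12, Mmp3, Mmp1a, Mmp8 and Mmp20). Mmp7, the small MMP matrilysin, passed on input 2 alone. Mmp10 passed on both input arrays and on neither FLAG IP array. Of the 13 Mmp genes elsewhere, 10 were well above background on both input arrays, and Mmp21 alone passed on no array.

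Most of the cluster genes also share letters in front of their starts. Promoters, here 250 bases before to 50 bases after a gene's start in RefSeq, GRCm38.p6, were held for 29 of the 43 genes. The letters TGANTCA, as a pattern, read the same on either strand. They include the core of the AP-1 site, TGACTCA or TGAGTCA, and occur in 7.81% of all 32851 promoters held. They occur in 7 of the 19 Mmp promoters held, and these 7 are among the 10 promoters of the chromosome 9 Mmp genes, 1 in each of 7 genes. Mmp8 of the cluster has no match. These letters occur in 0 of the 9 Adamts and 0 of the 4 Timp promoters. The letters TATAAA, on either strand, occur in 13.6% of all promoters, in 8 of those 10, in 1 of 9 Adamts and in 0 of 4 Timp promoters. Median GC content was 41.8% in the 10, against 52.7% in all promoters, 70% in the Adamts and 61% in the Timp promoters. The windows with TGANTCA are shown because, among the members with a promoter held, only genes of the little-detected cluster have them. Each is 27 bases of the plus strand, 5′ to 3′, with the match in capitals.
Mmp13, chr9:7272469-7272495: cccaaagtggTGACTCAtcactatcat
Mmp12, chr9:7347320-7347346: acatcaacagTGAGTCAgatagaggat
Mmp3, chr9:7445766-7445792: gaagcaattaTGAGTCAgttttcgggt
Mmp1a, chr9:7464058-7464084: ttgtcaaccaTGAGTCAcatagcctct
Mmp10, chr9:7502269-7502295: agcacccatgTGAGTCAtgcttagtga
Mmp20, chr9:7628126-7628152: atttgagacaTGAATCAtcacttacag
Mmp7, chr9:7692017-7692043: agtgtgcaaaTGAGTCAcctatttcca
The match begins 35 bases before the start in Mmp13 and 95 bases before it in Mmp20, with the others between. It has 3 spellings, and TGAGTCA is the one in Mmp12, Mmp3, Mmp1a, Mmp10 and Mmp7. The TGACTCA of Mmp13 is that core read on the other strand, and the TGAATCA of Mmp20 is not the AP-1 core. A match is a description of the letters and not a site shown to be used.

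Most of the measured proteases and inhibitors stood lower in the FLAG IP. Values are log2 of the processed signal relative to the 75th percentile of the same array, so 0 is that percentile, and each gene is read by its own probe, so levels of different genes are not compared. A gene counted as measured where a probe stood well above background on both FLAG IP arrays or on both input arrays, which 30 of the 43 genes reached (15 Adamts, 11 Mmp and 4 Timp). The contrast between FLAG IP and input is part of how the genes were chosen, so differences and counts describe these arrays and are not independent evidence. In limma, 20 of the 30 were called lower and 2 higher at an adjusted p under 0.05, and 8 were not called. At an unadjusted p under 0.05, 21 were lower and 2 higher. Of all 15263 genes measured, 25.4% were called lower, 28% higher and 53.4% in either direction. In 27 of the 30 members the FLAG IP arrays did not overlap the input arrays, as in 80.2% of all genes. The median log2 difference, FLAG IP minus input, was -1.25 over the 30 genes, with a range of -3.08 to 1.83, against 0.07 over all genes, whose middle 50% ran from -0.93 to 0.96. By name, the median was -1.42 for Adamts, with 11 lower and 0 higher of 15, and -0.90 for Mmp, with 6 lower and 2 higher of 11. It was -2.08 for Timp, with 3 lower of 4.

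The arrays set limits on these numbers. FLAG IP 1 was dim, with a 75th percentile of 55.7 intensity units, against 608 on FLAG IP 2 and 1026 and 1038 on inputs 1 and 2. The share of spots well above background was 42.7% and 65.4% on FLAG IP 1 and 2, against 66.0% and 70.2% on inputs 1 and 2. The lowest level well above background was -2.77 and -5.97 on FLAG IP 1 and 2, against -6.12 and -6.74 on inputs 1 and 2. All 30 measured members passed on both input arrays, and 19 passed on all 4 arrays (16 called lower, 1 higher and 2 not called). The other 11 entered through the input alone, and 10 of these passed on FLAG IP 2 but not on FLAG IP 1. The median SD between replicates over the 30 members was 0.253 in the FLAG IP and 0.0686 in the input, on the log2 scale.

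The counts of calls moved with single arrays. Input 2 shared a slide with both FLAG IP arrays, and input 1 was on another. A block for slide therefore fits input 1 by itself. Its differences are those of input 2 against both FLAG IP arrays, the same contrast as leaving out input 1. Those 2 settings differ in the genes and probes tested (15263 and 16075 genes), so their counts of calls are not separate checks. With slide as a block, 14 members were called lower and 1 higher, of 1549 and 1433 genes. Within the shared slide, where input 2 alone stood against both FLAG IP arrays and the lone array was taken to vary like the others, 0 members and 0 genes were called in either direction by limma. At an unadjusted p under 0.05, 15 members were lower and 2 higher there. For the same 30 members, the medians with slide as a block were -1.37 for Adamts, -0.95 for Mmp and -2.05 for Timp. Without input 2, 12 members were called lower and 2 higher, and 14 of the 22 calls remained. With 1 FLAG IP array left out, the closer input pair alone sets the spread, so counts of calls there are no check. Without the dim FLAG IP 1, the medians over the 32 members measured were -1.08 for Adamts, -0.82 for Mmp and -2.46 for Timp. Without FLAG IP 2 they were -1.72, -0.77 and -1.70.

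**Figure D1:**
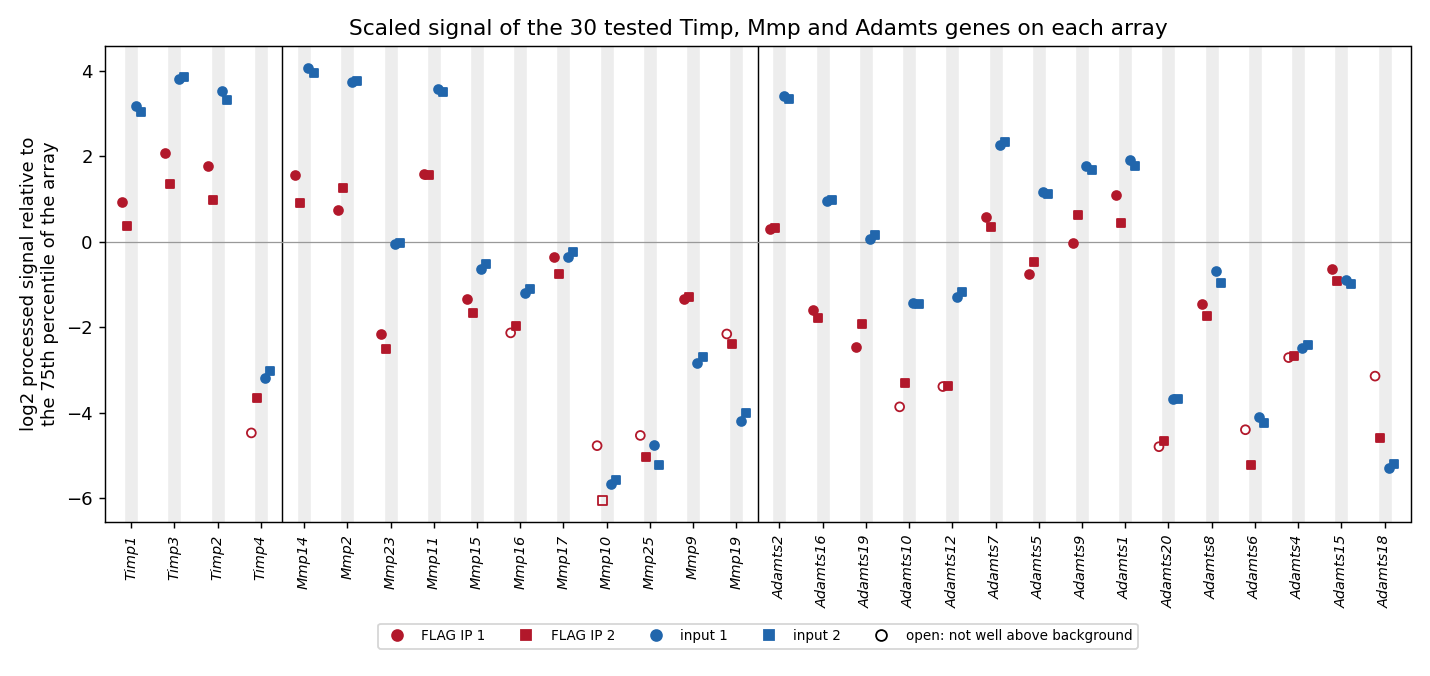
The vertical axis is the log2 processed signal relative to the 75th percentile of the array, for each of the 30 measured Timp, Mmp and Adamts genes along the horizontal axis. Red points are FLAG IP 1 and 2 and blue points input 1 and 2, and open points were not well above background. Red points lie below blue ones in Timp1, Timp2, Timp3, Mmp14, Mmp2, Mmp11 and Adamts2, and above them in Mmp9 and Mmp19.

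The inhibitor genes Timp1, Timp2 and Timp3 stood lower in the FLAG IP, and Timp4 was not called. Timp1, a secreted inhibitor of many MMPs, had levels of 0.92 and 0.36 in FLAG IP 1 and 2, against 3.18 and 3.04 in inputs 1 and 2. Both FLAG IP arrays lay well below both input arrays. The log2 difference was -2.47 ± 0.25 (SE, n = 2 arrays per group), a 5.53-fold lower signal in the FLAG IP.

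Timp2, which forms a complex with MMP14 that captures the proenzyme of MMP2, had levels of 1.78 and 0.98 in FLAG IP 1 and 2, against 3.53 and 3.32 in inputs 1 and 2. The log2 difference was -2.05 ± 0.33. Timp3, which binds to the matrix and also inhibits several ADAMTS and ADAM enzymes, had levels of 2.06 and 1.34 in FLAG IP 1 and 2, against 3.79 and 3.85 in inputs 1 and 2, a log2 difference of -2.12 ± 0.30. In both genes the groups did not overlap, and FLAG IP 1 was the higher of the FLAG IP arrays.

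Timp4, the remaining inhibitor, was weak. Its levels were -4.47 in FLAG IP 1, not well above background, and -3.65 in FLAG IP 2, against -3.18 and -3.02 in inputs 1 and 2. The difference of -0.96 ± 0.33 was not called, although the groups did not overlap, and it was 0.97 after normexp background correction. In the gene table, Timp1, Timp3 and Timp4 each overlap a synapsin gene (Syn1, Syn3 and Syn2).

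The gelatinases, which cut denatured and basement membrane collagen, went opposite ways. Mmp2 had levels of 0.73 and 1.26 in FLAG IP 1 and 2, against 3.73 and 3.76 in inputs 1 and 2. The FLAG IP arrays were far below the input, with a log2 difference of -2.75 ± 0.24, or 6.73-fold lower. Mmp9 had levels of -1.33 and -1.31 in FLAG IP 1 and 2, against -2.85 and -2.70 in inputs 1 and 2. Here both FLAG IP arrays lay above both input arrays, with a log2 difference of 1.46 ± 0.16 (2.75-fold higher), and its sign turned to -1.03 with no scaling of the arrays, where the median of all genes was -2.41 and Mmp9 stood 1.39 above it. With slide as a block, the difference of 1.39 was not called (adjusted p = 0.0839 in limma).

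Membrane-type MMPs, which are anchored at the cell surface, included the gene with the most negative Mmp difference. Mmp14, which activates the proenzyme of MMP2 and cuts fibrillar collagen, had levels of 1.56 and 0.89 in FLAG IP 1 and 2, against 4.07 and 3.95 in inputs 1 and 2. The groups were far apart, with a log2 difference of -2.79 ± 0.28. Of the 5 measured genes of this class, 3 were called lower and 0 higher in limma, beside 25.4% and 28% of all genes. With slide as a block, where input 2 alone stood against the FLAG IP, Mmp15 and Mmp16 lost their calls. Differences there were -2.73 for Mmp14, -0.99 for Mmp15 and -0.95 for Mmp16. Mmp15 had levels of -1.35 and -1.67 in FLAG IP 1 and 2, against -0.65 and -0.52 in inputs 1 and 2, and its log2 difference was -0.93 ± 0.20. Mmp16 differed by -0.90 ± 0.17 and was not well above background on FLAG IP 1.

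Mmp17 and Mmp25, whose enzymes are anchored by a lipid tail, were not called. Mmp17 had levels of -0.37 and -0.75 in FLAG IP 1 and 2, against -0.35 and -0.24 in inputs 1 and 2. FLAG IP 1 was level with input 1, and the log2 difference was -0.26 ± 0.21. Mmp25 had levels of -4.53 in FLAG IP 1, not well above background, and -5.03 in FLAG IP 2, against -4.77 and -5.21 in inputs 1 and 2. Its groups overlapped, with a log2 difference of 0.21 ± 0.28 that turned to -1.03 after quantile normalization and to -2.27 with no scaling. With no scaling the median of all genes was -2.41, below that value. Mmp24, which encodes a transmembrane enzyme, passed on input 2 alone and did not meet the filter.

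The stromelysins and other secreted enzymes went both ways. Mmp11, stromelysin-3, had levels of 1.59 and 1.57 in FLAG IP 1 and 2, against 3.57 and 3.51 in inputs 1 and 2. Replicates were close in both groups and the log2 difference was -1.96 ± 0.16. Mmp23, made as a membrane protein and released by cleavage, had levels of -2.17 and -2.50 in FLAG IP 1 and 2, against -0.05 and -0.03 in inputs 1 and 2, a log2 difference of -2.29 ± 0.19.

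Mmp19, a secreted enzyme with many matrix substrates, had levels of -2.16 in FLAG IP 1, not well above background, and -2.39 in FLAG IP 2, against -4.19 and -4.01 in inputs 1 and 2. Both FLAG IP arrays were above both input arrays. The log2 difference was 1.83 ± 0.18 (3.55-fold higher), and its sign turned to -0.66 with no scaling of the arrays, where the median of all genes was -2.41 and Mmp19 stood 1.75 above it. After normexp background correction it was 1.77 and not called. Mmp10, or stromelysin-2, had levels of -4.77 and -6.05 in FLAG IP 1 and 2, neither well above background, against -5.66 and -5.58 in inputs 1 and 2. The arrays overlapped and no fold is given.

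Collagenases, which open the triple helix of fibrillar collagen, could not be compared. The 3 on the array, Mmp1a, Mmp8 and Mmp13, had no probe well above background on any array. The same held for Mmp3, Mmp12, Mmp20 and Mmp21. Mmp28 passed on input 2 alone.

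**Figure D2:**
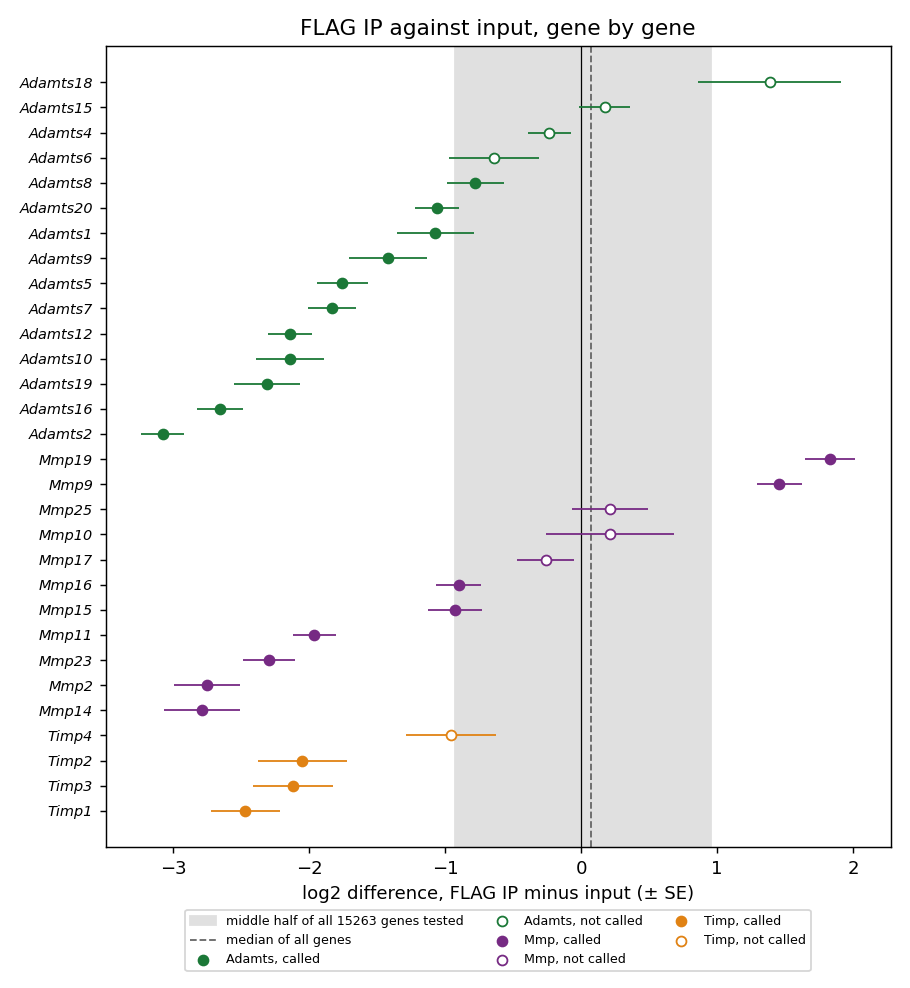
Each row is 1 of the 30 measured genes, and the horizontal axis is the log2 difference, FLAG IP minus input, with its SE as a bar (n = 2 arrays per group); filled points were called at an adjusted p under 0.05 in limma. The grey band is the middle 50% of all 15263 genes (-0.93 to 0.96) and the dashed line their median (0.07). Mmp19 and Mmp9 are the filled points on the positive side; with no scaling their sign turned, while they stood 1.75 and 1.39 above the median of all genes. Adamts2 lies at -3.08; for Mmp10 neither FLAG IP array was well above background.

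Adamts2, the enzyme that removes the amino-terminal propeptide of fibrillar procollagens, had the most negative difference of the 30 genes with 1 probe per gene and all 4 arrays. With a gene's probes averaged it stood at -2.61, with Timp1 at -2.97, Mmp14 at -2.83 and Mmp2 at -2.75. Without FLAG IP 1 it stood at -3.06 and Mmp14 at -3.12. Its levels were 0.29 and 0.32 in FLAG IP 1 and 2, against 3.41 and 3.35 in inputs 1 and 2. Replicates lay close together and the groups far apart, with a log2 difference of -3.08 ± 0.16, or 8.43-fold lower. The other procollagen-processing genes, Adamts3 and Adamts14, did not meet the filter. Adamts14 passed on FLAG IP 2 and input 2, and Adamts3 on FLAG IP 2 alone.

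Of the 7 proteoglycan-cleaving ADAMTS genes, 5 were called lower and 0 higher in limma, beside 25.4% and 28% of all genes, with a median log2 difference of -1.06. With slide as a block, where input 2 alone stood against the FLAG IP, Adamts1, Adamts8, Adamts9 and Adamts20 lost their calls. Adamts5 differed by -1.73 there. The aggrecanase gene Adamts5 differed by -1.76 ± 0.19, Adamts9 by -1.42 ± 0.28, Adamts1 by -1.07 ± 0.28 and Adamts20 by -1.06 ± 0.16. Adamts20 was not well above background on FLAG IP 1, and its difference was 0.99 after normexp background correction. Adamts8 had levels of -1.47 and -1.75 in FLAG IP 1 and 2, against -0.69 and -0.97 in inputs 1 and 2. The gap between its groups was small, with a log2 difference of -0.78 ± 0.21.

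The aggrecanase gene Adamts4 had levels of -2.71 in FLAG IP 1, not well above background, and -2.67 in FLAG IP 2, against -2.50 and -2.42 in inputs 1 and 2. All 4 arrays were close, with a log2 difference of -0.23 ± 0.16 that was not called. Adamts15, a versican-cleaving enzyme, had levels of -0.63 and -0.92 in FLAG IP 1 and 2, against -0.90 and -0.99 in inputs 1 and 2. Its groups overlapped, and the log2 difference was 0.17 ± 0.19, or -2.31 with no scaling, where the median of all genes was -2.41. Adamts15 and Adamts8 are neighbours on chromosome 9, as Adamts1 and Adamts5 are on chromosome 16. Both genes of the chromosome 16 pair were called lower.

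The remaining ADAMTS genes had a median of -2.14 over 7 measured. Of these, 5 were called lower and 0 higher, beside 25.4% and 28% of all genes. After normexp background correction, Adamts7 kept its call and Adamts10, Adamts12, Adamts16 and Adamts19 did not. Adamts16 had levels of -1.60 and -1.78 in FLAG IP 1 and 2, against 0.95 and 0.98 in inputs 1 and 2, a log2 difference of -2.65 ± 0.17. Adamts19 had levels of -2.46 and -1.93 in FLAG IP 1 and 2, against 0.07 and 0.16 in inputs 1 and 2, a log2 difference of -2.31 ± 0.24. In both the FLAG IP arrays were well below the input and above background.

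Adamts10, which acts on fibrillin microfibrils, had levels of -3.86 in FLAG IP 1, not well above background, and -3.31 in FLAG IP 2, against -1.43 and -1.47 in inputs 1 and 2. Its log2 difference was -2.14 ± 0.25. Adamts12, which cuts cartilage oligomeric matrix protein, had levels of -3.39 in FLAG IP 1, not well above background, and -3.37 in FLAG IP 2, against -1.30 and -1.18 in inputs 1 and 2. The log2 difference was again -2.14, with an SE of 0.16. Adamts7, which cuts the same protein, differed by -1.83 ± 0.18.

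Adamts18 and Adamts6 were not called. Adamts18 had levels of -3.14 in FLAG IP 1, not well above background, and -4.58 in FLAG IP 2, against -5.29 and -5.21 in inputs 1 and 2. The FLAG IP arrays lay above the input but far from each other, with a log2 difference of 1.39 ± 0.53. With no scaling it was -1.10, still above the median of all genes, which was -2.41 there. Adamts6 had levels of -4.40 in FLAG IP 1, not well above background, and -5.23 in FLAG IP 2, against -4.11 and -4.24 in inputs 1 and 2, a log2 difference of -0.64 ± 0.33. Adamts13, the enzyme that cuts von Willebrand factor, had no probe well above background on any array.

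Probes of a gene that met the filter pointed the same way, though they are not replicates of the condition. Of the 70 probes, 46 met the filter, and limma over all probes called 30 of them lower and 3 higher. In all 13 genes with more than 1 such probe, those probes had the same sign. The second probes of Adamts5, Adamts9 and Adamts16 passed on neither FLAG IP array. Probes outside the filter had differences above 0 in Adamts10, Adamts12, Adamts19, Adamts20 and Mmp16 (0.34 to 3.00), all called lower here. None of those probes was well above background on either FLAG IP array. Of the 13 genes, every probe that met the filter was called in 8, some in 4 (Adamts5, Adamts8, Adamts9 and Adamts16), and none in Mmp17. The 8 include Adamts10 and Adamts19, each with a probe outside the filter that pointed the other way. The 3 probes of Timp1 gave log2 differences of -3.36 to -2.47. The 4 probes of Adamts2 ranged more widely, with values of -3.28 to -1.27.

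The second probe of Mmp9 gave a larger difference than the first. It read -0.81 and -1.01 in FLAG IP 1 and 2, against -3.44 and -3.21 in inputs 1 and 2, a log2 difference of 2.41 ± 0.19, against 1.46 for the first. All 4 arrays were well above background for both Mmp9 probes. The 24 probes that did not meet the filter lay between -5.01 and -4.24 on FLAG IP 1 and between -8.22 and -5.17 on FLAG IP 2, against -8.38 to -5.89 on input 1 and -8.91 to -5.44 on input 2. For 23 of these 24 the unfiltered difference was above 0, and FLAG IP 1, whose lowest level well above background was the highest of the 4 arrays, held their highest values.

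**Figure D3:**
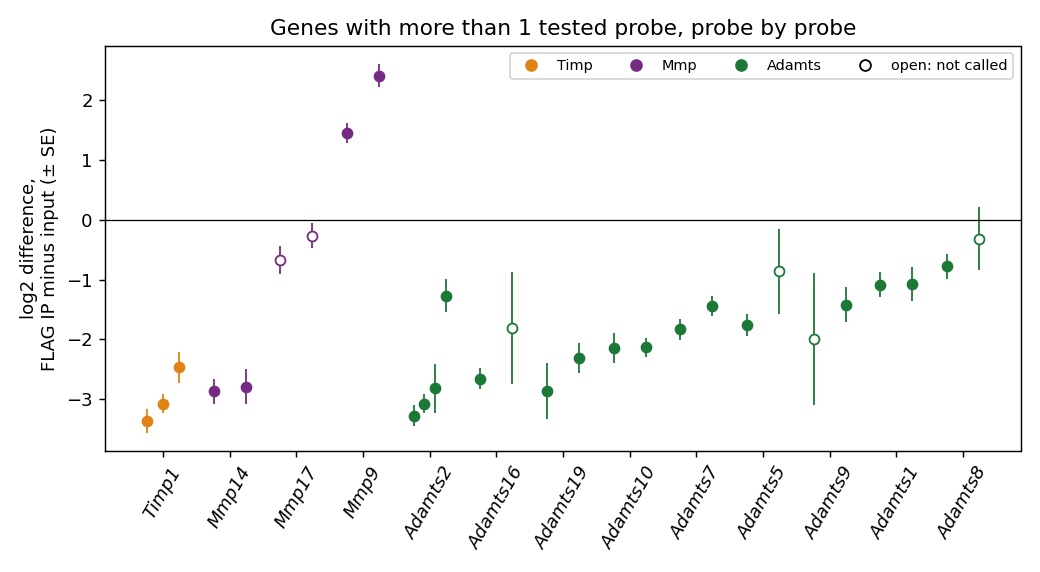
The vertical axis is the log2 difference, FLAG IP minus input, with its SE (n = 2 arrays per group). Each point is a measured probe of the 13 genes with more than 1. Filled points were called at an adjusted p under 0.05 over all probes. The measured probes of a gene lie on the same side of 0 in all 13 genes, and the 4 of Adamts2 spread from -3.28 to -1.27.

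Detection differed by name. Of the 21 Mmp genes, 52.4% were well above background on both input arrays and 33.3% on none of the 4 arrays, against 75.6% and 17.8% of all named genes. The Adamts genes passed on both input arrays in 83.3% and the Timp genes in 100%. On both FLAG IP arrays, 44.2% of the 43 members and 56.9% of all named genes passed. These are counts of genes and no test was made of them.

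Substrates and partners of the proteases also mostly stood lower. Of 10 proteoglycan and link protein genes, 8 were called lower and 2 higher, beside 25.4% and 28% of all genes. Their median was -1.96. Vcan, which encodes versican, differed by -3.21 ± 0.16 and Hapln1, which encodes a link protein of hyaluronan and versican, by -3.19 ± 0.16, and neither was well above background on FLAG IP 1. On the other side were Ncan, which encodes neurocan, at 2.45 ± 0.26 and Acan, which encodes aggrecan, at 1.51 ± 0.17. Of 17 basement membrane and other matrix genes, 13 were called lower and 0 higher, with a median of -2.29. The gene of the matrix glycoprotein fibulin-2, Fbln2, differed by -3.05 ± 0.18 and the laminin chain gene Lama2 by -2.999 ± 0.34.

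Of 17 activators and other inhibitors, 9 were called lower and 2 higher, beside 25.4% and 28% of all genes. Their median was -1.66. Thbs1, which encodes a thrombospondin, differed by -2.57 ± 0.21 and the matricellular protein gene Sparc by -2.50 ± 0.31. Plg, which encodes plasminogen, the precursor of a protease that can activate several proMMPs, stood higher by 1.88 ± 0.20. Thbs1 and Plg were not well above background on FLAG IP 1, and the same held for Lama2, Adam23, Adam10 and the 3 called ADAMTS-like genes below.

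Related proteases were called in both directions. Of 9 ADAM genes, 3 were called lower (Adam23 at -2.21 and the ectodomain sheddase Adam10 at -1.69 were the most negative) and 1 higher (Adam8 at 0.93), with a median of -0.48, beside 25.4% lower and 28% higher of all genes. Of 7 genes for ADAMTS-like proteins, which lack the protease domain, 2 were called lower (Adamtsl2 at -1.45 and Adamtsl1 at -1.30) and 1 higher (Adamtsl3 at 1.05). The 28.6% called lower is near the 25.4% of all genes. The other 4, Papln, Adamtsl4, Adamtsl5 and Thsd4, were not well above background on either FLAG IP array, so the median of this list, 0.20, is a reading at background. It was -1.34 without FLAG IP 1 and 0.87 without FLAG IP 2. Of 5 other proteases, the procollagen C-proteinase gene Bmp1 at -2.17 and the carboxypeptidase gene Cpe at -2.38 were called lower and the meprin gene Mep1a at 1.38 higher. With no scaling, limma called 0 genes of all these lists in either direction, and within the shared slide it again called 0. At an unadjusted p under 0.05, 16 and 11 of the 17 basement membrane and other matrix genes were lower under those settings. After normexp background correction, 2 proteoglycan genes were called lower and 2 higher, 6 basement membrane and other matrix genes lower, and 0 ADAM genes in either direction (also 0 at an unadjusted p under 0.05).

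**Figure D4:**
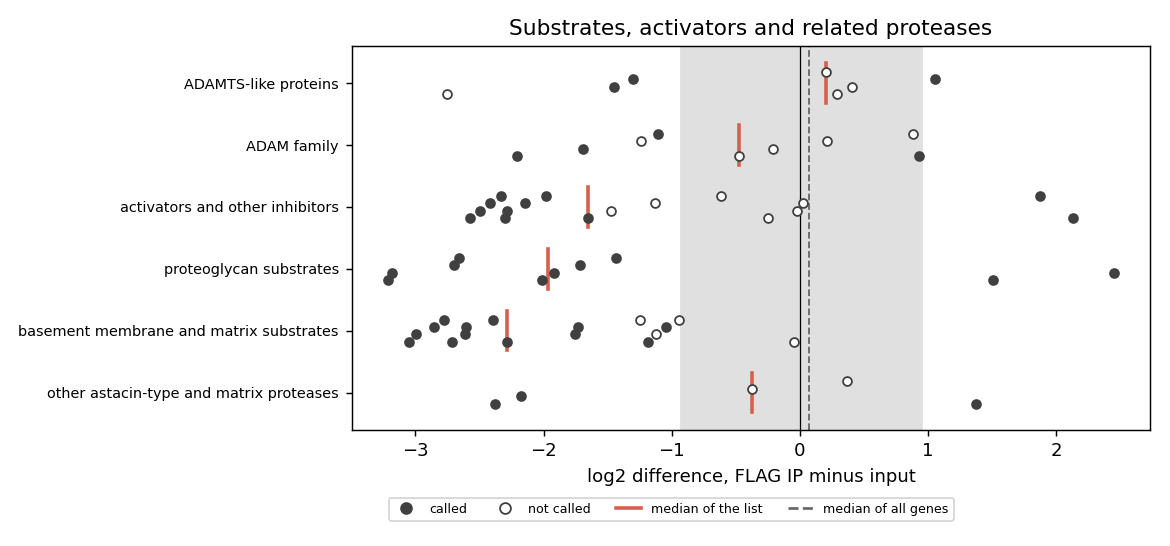
Each point is a gene of the list named on the left, at its log2 difference, FLAG IP minus input, on the horizontal axis (n = 2 arrays per group). Filled points were called at an adjusted p under 0.05, the red bar is the median of the list, the dashed line the median of all genes (0.07) and the grey band their middle 50%. The proteoglycan and basement membrane lists have medians of -1.96 and -2.29, and the ADAMTS-like list one of 0.20.

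Markers of the cells of the gonad moved with the same contrast. All measured markers of germ, Sertoli, Leydig, mesenchymal, endothelial and macrophage cells were well above background on both input arrays. Of 12 germ cell markers, 7 were called higher and 1 lower, beside 28% and 25.4% of all genes. Their median was 1.48. Their summed level, in multiples of the 75th percentile, was 184 and 202 in FLAG IP 1 and 2, against 91.3 and 96.3 in inputs 1 and 2. Of the Sertoli markers, 10 of 10 were lower, with sums of 19.4 and 21.1 in FLAG IP 1 and 2, against 146 and 128 in inputs 1 and 2. Of the Leydig markers, 7 of 7 were lower, with sums of 20.9 and 20.0 in FLAG IP 1 and 2, against 144 and 132 in inputs 1 and 2.

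Mesenchymal markers, which share Dcn with the proteoglycan list, were lower in 9 of 10. Of all genes, 25.4% were called lower and 28% higher. The sums of the mesenchymal markers were 75.1 and 47.8 in FLAG IP 1 and 2, against 323 and 311 in inputs 1 and 2. Endothelial markers were lower in 5 of 8, with sums of 5.12 and 3.49 in FLAG IP 1 and 2, against 12.7 and 10.9 in inputs 1 and 2. Macrophage markers were lower in 4 of 7. Their sums were 1.12 and 0.948 in FLAG IP 1 and 2, against 4.68 and 4.57 in inputs 1 and 2. On both FLAG IP arrays, 6 of the 8 endothelial and 2 of the 7 macrophage markers were well above background. After normexp background correction, the median was -0.88 for the endothelial list and 0.34 for the macrophage list. The medians of the Sertoli, Leydig and mesenchymal lists were -2.45, -2.58 and -2.06, and those of the endothelial and macrophage lists -1.45 and -1.04. The members' medians were -2.08 for Timp, -1.42 for Adamts and -0.90 for Mmp. The part of the cells of origin in the values of the proteases and inhibitors was not tested. For levels in the bulk input RNA, fewer cells of a type and less RNA per cell cannot be told apart. That limit does not describe the step between input and precipitate.

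The authors' deposited table gave the same direction for all 30 measured members. For the probes used here, its log2 ratio minus the log2 difference given above was -0.14 to -0.12. It lists a ratio of 2.53 for the first Mmp9 probe and of 3.26 for Mmp19.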

How the data were processed

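RNA of a FLAG precipitate and input RNA of fetal mouse testis were hybridised to 2 one-colour arrays each. Per the file headers, the scanner files give each spot's processed signal, corrected for background, as linear intensity. The submitters' processing notes name Agilent Feature Extraction 9.5. The authors' deposited table holds a mean intensity per group (within 0.1% of the mean of both arrays for 41044 of 41174 probes), a ratio to input and a p-value, which was not used. Depth in the sense of reads does not apply to arrays, and their number, 4, limits the precision.

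Processed signals were divided by the 75th percentile of the 43379 non-control spots of their array and taken to log2. Spots marked as outliers were left out (52 to 104 per array), none was saturated, and spots of a probe were averaged. Probes were kept where well above background on both FLAG IP arrays or on both input arrays, and the kept probe with the highest mean stood for its gene. Of the probes, 31004 were named by gene ID in RefSeq's table of GRCm38.p6, 155 by symbol, 309 by an older symbol and 1108 by the name in the file, and 8598 had no name. FLAG IP and input were compared with lmFit and eBayes of limma 3.58.1 (R 4.3.3), two-sided and without a block, at 2 residual degrees of freedom, with Benjamini-Hochberg adjustment over 15263 genes and a threshold of 0.05. The eBayes step added 2.08 prior degrees of freedom from all genes, and every SE given is the moderated one, not the spread of a gene's own arrays alone. The steps were tested on simulated data.

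The members and all gene lists were chosen with earlier results of these data known. Values on every array are given for all Timp genes and for the 5 largest and 5 most negative differences among measured Mmp and Adamts genes, and other lists name their 2 largest and 2 most negative called genes, of which 1 is not reported here. Alternatives were quantile, median and no scaling, normexp on the median signal (offset 50), other filters on dim probes, other probe rules, outlier spots kept, a trended and robust eBayes, a block for replicate number or for slide, and leaving out 1 array at a time. List counts under these were added after seeing the data. Same-numbered arrays of the groups had deviations that correlated at 0.05 over genes, and 2 pairs do not show that the numbers pair the arrays.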

Additional observations from a re-analysis of the deposited data

How the results depend on the processing

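With no scaling, 0 members and 0 genes were called higher or lower by limma (unadjusted p under 0.05: 0 members higher and 20 lower, 0 and 4046 genes). The median of all genes was then -2.41, and the cause of the lost calls was not tested. The differences that turned there were Mmp9 -1.03, Mmp19 -0.66, Adamts18 -1.10, Adamts15 -2.31, Mmp25 -2.27 and Mmp10 -2.28; relative to that median Mmp9 stood at 1.39 and Mmp19 at 1.75. Normexp background correction called 1 member higher and 10 lower, and 1276 and 1402 genes, and turned Adamts4 to 0.74, Timp4 to 0.97, Adamts20 to 0.99 and Adamts6 to 1.30; the cause was not tested. Relative to a shift of 0.38 in all genes, its medians were -0.91 for Adamts, -0.64 for Mmp and -2.71 for Timp. Calls lost under it were those of Adamts8, Adamts9, Adamts10, Adamts12, Adamts16, Adamts19, Adamts20, Mmp15, Mmp16, Mmp23 and Mmp19. With no filter on dim probes the Mmp median turned to 1.20, with 21 Mmp genes entering in place of 11. A filter on all 4 arrays left 1 member higher, since fewer genes entered. Quantile normalization turned Mmp25 to -1.03 and Mmp10 to -1.23. Slide as a block called 1 member higher and 14 lower, 1433 and 1549 genes, and lost Adamts1, Adamts8, Adamts9, Adamts20, Mmp9, Mmp15 and Mmp16. With the replicate number as a replicate block, 3 members were called higher and 20 lower, and 4129 and 3875 genes, which says nothing on pairing.

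Leaving out each array in turn gave 0 to 5 members higher and 0 to 24 lower, and 0 to 6824 genes higher and 0 to 6052 lower. The lone array of a group was taken to vary like the other group. With 1 FLAG IP array left out, the spread came from the closer input pair alone, so those counts do not check the calls. Leaving out input 1 gives the same difference as slide as a block for any gene read by the same probe. Without input 1 all counts were 0 (unadjusted p under 0.05: 2 members higher and 15 lower, 2728 and 2539 genes). Without input 2 they were 2 and 12 members, 1107 and 1237 genes, and Mmp25 turned to -0.012. Without FLAG IP 1 they were 3 and 24 members, 6572 and 6052 genes, with Mmp25 at -0.035 and Mmp10 at -0.43. Without FLAG IP 2 they were 5 and 21 members, 6824 and 5722 genes, with Mmp25 at 0.46 and Mmp10 at 0.85. Of the 22 called members, 21 kept their call after quantile normalization or with the mean of a gene's probes. After median centring 22 did, but that setting only shifts the differences of all genes together. The dim FLAG IP 1 limits what can be said of genes below its lowest level well above background.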
